A study of Homo sapiens with 8 samples.

Results

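The 10 genes described here mark the ends of the epithelial-mesenchymal axis. They are CDH1, EPCAM, ESRP1 and GRHL2 on the epithelial side and ZEB1, SNAI1, SNAI2, VIM, FN1 and CDH2 on the mesenchymal side. They were taken by name out of 17309 genes in the count table, and the estimated counts of all transcripts of a gene were added up. The study sequenced the mRNA of 2 established human colorectal cancer cell lines, SW480 and DLD-1, to learn what depends on NAT10, the enzyme that acetylates cytidine in RNA. Cells of each line carried either a control hairpin (shControl, genotype WT in the labels) or a hairpin against NAT10 (shNAT10, genotype NAT10 knockdown), so that all 4 groups had been infected with virus, and each group held 2 libraries, labelled as biological replicates. The paper's methods describe stable lines made by lentiviral infection, and which NAT10 hairpin was sequenced is not given in the sources used here. With 2 libraries in a group, the p-values measure only the spread between these libraries.

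Epithelial cells are held together by E-cadherin, the product of CDH1, and keep this state through transcription factors such as GRHL2 and through the splicing factor ESRP1. In the epithelial-mesenchymal transition, ZEB1, SNAI1 and SNAI2 bind E-box sequences in the promoters of junction genes and repress them, while the intermediate filament vimentin (VIM), fibronectin (FN1) and N-cadherin (CDH2) rise. ZEB1 and GRHL2 repress each other, and carcinomas often hold mixed states along this axis.

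The E-box of the ZEB and SNAI factors was read in promoters from RefSeq (build GRCh38.p14, 250 bases before to 50 bases after a transcription start), because it shows which genes of the axis carry the letters these repressors are known to bind. The letters searched were CACCTG and its reverse complement CAGGTG, which together are 1 motif on both strands. CRB3, which sets apical polarity, and CLDN7, a claudin of the tight junction, held 5 matches each, a number reached by 0.094% of the 35116 promoter entries. RAB25, a small GTPase of apical recycling, held 2 matches. They are shown as the epithelial promoters with the most matches and as that of the most strongly different junction gene, followed by a ZEB1 promoter and that of VIM. The capitals mark the E-box. The windows lie at chr19:6464021-6464320 (plus strand), chr17:7262429-7262728 (minus strand), chr1:156060910-156061209 (plus strand), chr10:31318966-31319265 (plus strand) and chr10:17227991-17228290 (plus strand).
CRB3: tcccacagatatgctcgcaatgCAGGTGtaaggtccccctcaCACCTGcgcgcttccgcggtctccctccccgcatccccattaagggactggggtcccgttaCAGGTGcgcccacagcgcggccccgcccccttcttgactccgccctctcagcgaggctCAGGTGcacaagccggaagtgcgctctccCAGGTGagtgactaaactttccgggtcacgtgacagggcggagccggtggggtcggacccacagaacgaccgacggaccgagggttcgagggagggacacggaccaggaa
CLDN7: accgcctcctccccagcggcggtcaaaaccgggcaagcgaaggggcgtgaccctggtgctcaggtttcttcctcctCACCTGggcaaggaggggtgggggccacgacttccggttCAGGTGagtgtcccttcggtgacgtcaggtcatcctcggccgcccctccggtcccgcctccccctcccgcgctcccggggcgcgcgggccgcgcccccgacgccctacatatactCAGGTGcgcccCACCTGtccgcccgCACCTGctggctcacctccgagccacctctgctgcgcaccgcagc
RAB25: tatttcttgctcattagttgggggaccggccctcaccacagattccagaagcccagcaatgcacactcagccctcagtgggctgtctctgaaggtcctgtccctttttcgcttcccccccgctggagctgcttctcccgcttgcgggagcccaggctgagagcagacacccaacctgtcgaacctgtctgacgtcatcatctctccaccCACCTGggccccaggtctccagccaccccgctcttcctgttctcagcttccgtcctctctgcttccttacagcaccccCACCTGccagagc
ZEB1: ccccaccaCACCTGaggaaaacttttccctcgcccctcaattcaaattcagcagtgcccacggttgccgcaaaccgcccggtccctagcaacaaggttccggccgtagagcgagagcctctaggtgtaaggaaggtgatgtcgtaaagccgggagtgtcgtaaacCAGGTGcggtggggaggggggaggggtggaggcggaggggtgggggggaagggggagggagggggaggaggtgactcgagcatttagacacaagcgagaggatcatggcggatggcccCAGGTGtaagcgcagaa
VIM: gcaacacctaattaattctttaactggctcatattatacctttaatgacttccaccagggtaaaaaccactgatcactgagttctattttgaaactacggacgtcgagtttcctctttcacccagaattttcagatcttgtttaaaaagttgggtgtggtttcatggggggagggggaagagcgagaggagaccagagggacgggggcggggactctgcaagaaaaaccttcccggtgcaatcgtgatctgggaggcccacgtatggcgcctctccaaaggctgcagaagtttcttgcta

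The first E-box base lay 228, 208, 147, 89 and 60 bases before the start in CRB3. In CLDN7, 3 of the 5 matches lay within 20 bases of the start. Among 36 junction and surface genes of epithelia listed for this work, 21 had a promoter entry and 15 of these (71.4%) held the motif, against 24.1% of 27305 genes with an entry. Of 25 mesenchymal matrix and cytoskeleton genes with an entry, 3 (12.0%) held it. The windows of VIM, FN1 and CDH2 held no match, and 2 of the 7 ZEB1 entries did, the one shown with 3. No entry was at hand for CDH1, EPCAM, ESRP1, GRHL2, SNAI1 and SNAI2. A match is only a run of letters, and no binding was measured here.

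The libraries held 15147805 to 17271336 estimated counts, and all 10 genes passed the filter on low counts among 13619 genes tested. NAT10 stood at 122 CPM (counts scaled to a common library size) in both SW480 shControl libraries and at 23.6 and 27.9 CPM with shNAT10, and in DLD-1 it went from 121 CPM in both libraries to 59.0 and 54.4 CPM. NAT10 fell by 2.25 on the log2 scale in SW480 (SE 0.0869, adjusted p = 3.7e-09) and by 1.09 in DLD-1 (SE 0.0812, adjusted p = 2.7e-05). The DLD-1 call was lost on the FPKM scales, with -1.04 on log2(FPKM + 1) (adjusted p = 0.079), -1.08 on log2(FPKM + 0.1) (adjusted p = 0.056) and -1.04 in the 7 libraries with whole FPKM tables (adjusted p = 0.078). Of the 9 colon epithelium markers, 7 to 8 reached 10 counts in a library of each group. Their summed level was 6632 to 7158 CPM in DLD-1 and 2901 to 3637 CPM in SW480. Most of this sum was the keratins KRT8 and KRT18 (3616 and 2239 CPM in DLD-1 shControl, 1604 and 1185 CPM in SW480 shControl). Of 8 tested markers, 6 were called lower and 2 higher in SW480 shControl than in DLD-1 shControl. The higher ones were VIL1 (270 and 225 against 113 and 71 counts) and LGALS4 (39 and 32 against 23 and 11 counts). Endothelial markers summed to at most 1.64 CPM and fibroblast markers to at most 4.91 CPM in any library, with COL3A1, DCN, LUM and PDGFRA at 0 to 3 counts and THY1 at 0 to 2. The others were read, COL1A1 at 28 to 39 counts and PDGFRB at 33 to 52 counts in SW480 (2 to 10 and 16 to 26 in DLD-1), and FAP at 9 to 13 counts in DLD-1 (0 to 2 in SW480), and their part in the line differences was not tested. Of 5 blood cell markers the table listed CD68 (292 to 522 counts) and CD3E (0 to 3 counts). In bulk RNA, fewer cells of a kind and less RNA per cell cannot be told apart.

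**Figure D1:**
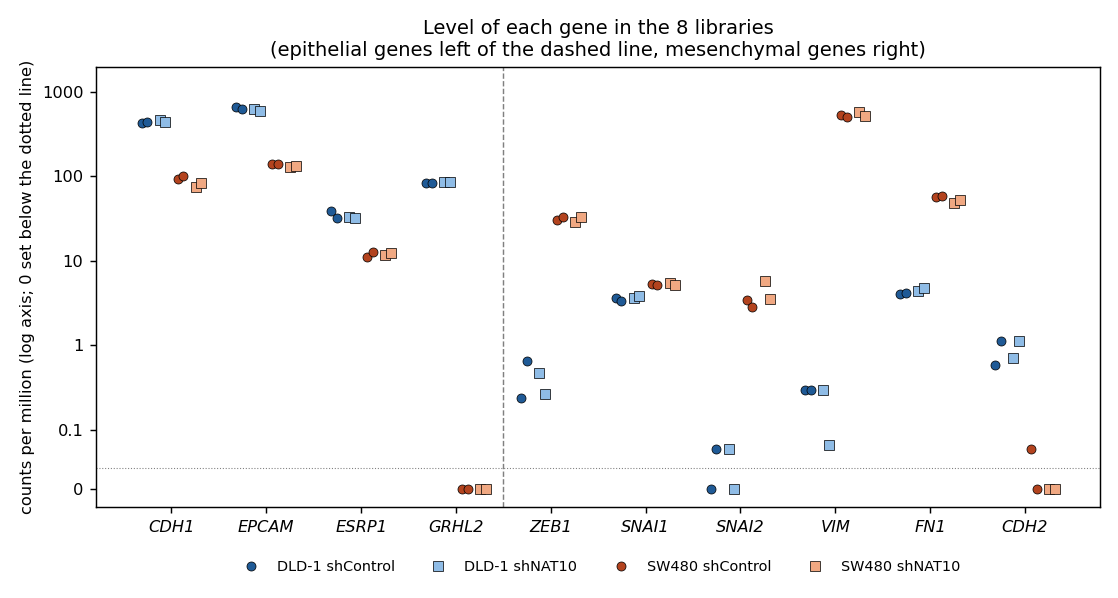
Level of the 10 genes in each library, in CPM on a log axis, with values of 0 set below the dotted line. Each point is 1 library. The lines separate at every gene: CDH1, EPCAM, ESRP1, GRHL2 and CDH2 were higher in all 4 DLD-1 libraries, and the other 5 genes were higher in all 4 SW480 libraries.

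CDH1 (chr16:68737292-68835537) encodes the adhesive cadherin of epithelial junctions. It was measured at 434 and 439 CPM in the DLD-1 shControl libraries and at 94.1 and 101 CPM in the SW480 shControl libraries. Both SW480 libraries lay far below both DLD-1 libraries without being near 0. The level in SW480 was 4.48-fold lower (log2 fold change -2.16, SE 0.0707, adjusted p = 1.4e-12, edgeR quasi-likelihood test with Benjamini-Hochberg adjustment over all genes tested, as for every adjusted p below). With shNAT10, CDH1 stood at 462 and 446 CPM in DLD-1 and at 75.9 and 84.5 CPM in SW480, a 5.67-fold difference (log2 fold change -2.50, adjusted p = 3.5e-13).

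EPCAM (chr2:47369311-47387020), the epithelial cell adhesion molecule, followed the same order. Its levels were 656 and 625 CPM in DLD-1 shControl and 140.0 and 141 CPM in SW480 shControl, 4.56-fold lower in SW480 (log2 fold change -2.19, SE 0.0637, adjusted p = 4.3e-13). With shNAT10 they were 624 and 601 CPM in DLD-1 and 131 and 132 CPM in SW480. The libraries of the 2 lines did not overlap under either hairpin, and EPCAM remained the epithelial gene with the highest CPM in SW480.

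ESRP1 (chr8:94641174-94707466) directs the epithelial splice choices of several receptors. It reached 38.9 and 32.0 CPM in DLD-1 shControl and 11.2 and 12.6 CPM in SW480 shControl, a 2.98-fold lower level in SW480 (log2 fold change -1.58, SE 0.113, adjusted p = 1.1e-08). With shNAT10 the values were 33.0 and 32.2 CPM against 11.8 and 12.5 CPM. It thus differed less between the lines than the other 3 epithelial genes and was still read in every SW480 library.

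GRHL2 (chr8:101492439-101681200), a grainyhead transcription factor that activates junction genes, was the most unequal epithelial gene. It was at 84.2 and 84.3 CPM in DLD-1 shControl and at 85.2 and 86.1 CPM in DLD-1 shNAT10. All 4 SW480 libraries held 0 GRHL2 counts. Against a floor of 3 counts over the group, the level in SW480 shControl was at least 959-fold lower (2857 against 0 counts, adjusted p = 1.1e-13) and with shNAT10 at least 973-fold lower.

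Of the repressors, ZEB1 (chr10:31318417-31529804), a zinc finger factor that shuts down junction genes, had the clearest pattern. It stood at 30.7 and 32.8 CPM in SW480 shControl and at 0.235 and 0.651 CPM in DLD-1 shControl, from 1083 and 15 counts in all. With shNAT10 it stood at 29.1 and 32.9 CPM in SW480 and at 0.471 and 0.263 CPM in DLD-1. The ratio of SW480 to DLD-1 was 71.7 with shControl (95% counting interval 43.3 to 129, adjusted p = 4.2e-12) and 83.2 with shNAT10 (47.4 to 162, adjusted p = 4.9e-12). Such intervals cover counting error only. Without DLD-1 shControl replicate 2 the shControl log2 fold change went from 6.14 to 7.03.

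SNAI2 (chr8:48917598-48921429), the repressor Slug, was lower in level but just as unequal. SW480 shControl libraries held 58 and 48 counts (3.40 and 2.81 CPM) and the DLD-1 shControl libraries 0 and 1 count. With shNAT10 these were 97 and 61 counts (5.70 and 3.57 CPM) in SW480 and 1 and 0 counts in DLD-1. The ratio was 105 with shControl (counting interval 18.5 to 4198, adjusted p = 7.5e-07) and 149 with shNAT10 (26.4 to 5932, adjusted p = 1.3e-07). A single DLD-1 count set the denominator each time, so the size of the ratio is poorly known while its direction held in all 8 libraries. The fitted log2 fold change in shControl cells was 5.54 without DLD-1 shControl replicate 1 and 8.71 without replicate 2. In shNAT10 cells it went from 6.91 to 9.28 without DLD-1 shNAT10 replicate 1 and to 6.13 without replicate 2.

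SNAI1 (chr20:49982980-49988886), the repressor Snail, was the repressor both lines shared. It was at 5.28 and 5.09 CPM in SW480 shControl and at 3.58 and 3.32 CPM in DLD-1 shControl. With shNAT10 it was at 5.47 and 5.21 CPM in SW480 and at 3.65 and 3.87 CPM in DLD-1. The SW480 libraries lay above the DLD-1 libraries by a small step with shControl (log2 fold change 0.59, SE 0.169, adjusted p = 0.0059) and with shNAT10 (log2 fold change 0.51, SE 0.167, adjusted p = 0.013). DESeq2 placed both differences just past the threshold (adjusted p = 0.051 and 0.089). In the shNAT10 libraries the call was also lost without DLD-1 shNAT10 replicate 1 (adjusted p = 0.069) and without SW480 shNAT10 replicate 1 (adjusted p = 0.053).

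Among the structural genes, VIM (chr10:17228241-17237593) separated the lines most widely. Vimentin mRNA was at 527 and 500.4 CPM in SW480 shControl and at 574 and 524 CPM in SW480 shNAT10. The 4 DLD-1 libraries held 5, 5, 5 and 1 counts, at most 0.296 CPM. The ratio was 1742 with shControl (counting interval 947 to 3634, adjusted p = 6.3e-16) and 2947 with shNAT10 (1354 to 8032, adjusted p = 6.2e-16). In shNAT10 cells the fitted log2 fold change went from 11.47 to 12.87 without DLD-1 shNAT10 replicate 1 and to 10.83 without replicate 2. VIM was the highest of the 10 genes in every SW480 library and among the lowest in DLD-1.

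FN1 (chr2:215360865-215436068), the matrix glycoprotein fibronectin, was present in both lines. It was at 57.7 and 57.8 CPM in SW480 shControl against 4.05 and 4.203 CPM in DLD-1 shControl, 14.0-fold higher in SW480 (log2 fold change 3.81, SE 0.107, adjusted p = 3.0e-13). With shNAT10 it was at 47.9 and 52.8 CPM against 4.36 and 4.73 CPM (log2 fold change 3.47, SE 0.107, adjusted p = 7.9e-13). The lines did not overlap under either hairpin.

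CDH2 (chr18:27932879-28177130), the mesenchymal and neural cadherin, ran against the other 5 mesenchymal genes. It was low in both lines, with 10, 19, 12 and 17 counts in the 4 DLD-1 libraries and 1, 0, 0 and 0 counts in the 4 SW480 libraries. DLD-1 was thus the higher line. In shControl cells the ratio of DLD-1 to SW480 was 29.2 (counting interval 4.84 to 1192, adjusted p = 4.4e-04), and with shNAT10 DLD-1 was at least 10.2-fold higher (adjusted p = 1.5e-04). The fitted log2 fold change of SW480 over DLD-1 in shControl cells went from -4.55 to -6.85 without SW480 shControl replicate 1 and to -3.71 without replicate 2. The highest CDH2 level in any library was 1.13 CPM, so that N-cadherin mRNA was scarce in SW480 and DLD-1 alike.

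All 10 genes differed between the lines under both hairpins. In shControl cells 5 were higher in SW480 (ZEB1, SNAI1, SNAI2, VIM, FN1) and 5 were lower (CDH1, EPCAM, ESRP1, GRHL2, CDH2). Of all genes tested, 38.1% were called higher and 35.6% lower there, so a call alone says little about these 10 genes. In shNAT10 cells, which are other libraries, the same 5 genes were higher and the same 5 lower, beside 38.2% and 36.3% of all genes tested. The median absolute log2 fold change over all genes tested was 0.544 in shControl cells, and 9 of the 10 genes lay beyond it by more than 1 log2 unit, the exception being SNAI1.

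**Figure D2:**
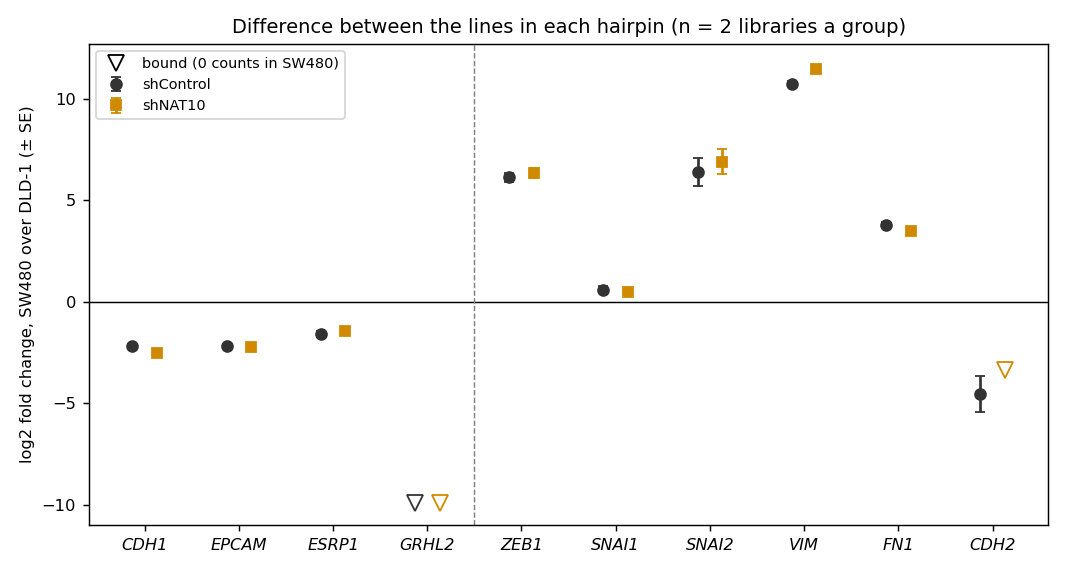
Log2 fold change of SW480 over DLD-1 for each gene in shControl and in shNAT10 libraries, with the standard error that goes with the edgeR test. ZEB1, SNAI2, VIM and CDH2 held few counts in the lower line. Their bars understate the counting error, and the counting intervals of their ratios in the text are wider. Open triangles are bounds for genes at 0 counts in SW480. CDH2 lies below 0 with the epithelial genes, and SNAI1 lies close to 0.

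Per transcript length the 10 genes had another order in each line. In DLD-1 shControl, the FPKM values (a level per transcript length and depth, summed over transcripts, mean ± SD, n = 2) were 499.7 ± 16.4 for EPCAM, 96.1 ± 1.35 for CDH1, 17.3 ± 0.375 for GRHL2 and 10.3 ± 1.39 for ESRP1. All 6 mesenchymal genes came after them, led by SNAI1 at 2.40 ± 0.127 FPKM and FN1 at 0.51 ± 0.0141 FPKM, and CDH2 (0.235 ± 0.106 FPKM) and VIM (0.17 ± 0.0141 FPKM) did not differ beyond their spread. In SW480 shControl, VIM led at 323 ± 9.75 FPKM, followed by EPCAM at 111 ± 1.202 FPKM and CDH1 at 21.6 ± 1.23 FPKM. These epithelial genes stood above FN1 (7.29 ± 0.0849 FPKM) and ZEB1 (5.58 ± 0.304 FPKM), while SNAI1 (3.65 ± 0.0707 FPKM) and ESRP1 (3.51 ± 0.354 FPKM) did not differ beyond their spread. SNAI2 came next at 1.64 ± 0.212 FPKM. SW480 thus held high VIM together with EPCAM and CDH1 mRNA, whereas in DLD-1 the epithelial and mesenchymal genes were separated in order.

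Other genes of the same programme were counted in lists, beside 38.1% of all genes tested called higher and 35.6% lower in SW480 shControl. Of 35 tested junction and surface genes of epithelia, 32 were lower in SW480 shControl than in DLD-1 shControl and 1 was higher, with a median log2 fold change of -1.57 against 0.0113 over all genes tested. RAB25 was at 112 CPM in DLD-1 and at 0 counts in SW480, at least 1280-fold lower (adjusted p = 2.1e-13). MAL2, a transcytosis protein, stood at 367 CPM in DLD-1 and 3.05 CPM in SW480, and PRSS8, the membrane protease prostasin, at 81.9 and 3.34 CPM. CLDN3, a claudin, was the higher one at 19.3 CPM in SW480 and 14.4 CPM in DLD-1 (adjusted p = 0.0044). Of the 15 tested junction genes with the E-box in the promoter window, 13 were lower in SW480 and 1 higher, and of 5 without it 4 were lower. Junction genes were thus mostly lower with and without the motif, as in the whole list (32 of 35). A link of the line difference to the E-box was not tested.

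Of 15 epithelial transcription and splicing factors, 13 were lower in SW480 and 1 was higher, with a median of -1.95. EHF and ELF3, ETS factors of epithelia, were at 443 and 191 CPM in DLD-1 and at 6.62 and 12.1 CPM in SW480. GRHL3, a relative of GRHL2, went the same way (22.8 against 0.966 CPM), as did OVOL1, a repressor of ZEB1 (6.78 against 0.0878 CPM). The simple epithelial keratins were divided, with 4 of 7 lower and 1 higher. KRT8 and KRT18, the common pair of simple epithelia, stayed abundant in SW480 at 1604 and 1185 CPM against 3616 and 2239 CPM, whereas KRT23 was at 209 CPM in SW480 and 0 counts in DLD-1 and KRT20 at 0.0879 against 19.1 CPM.

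The mesenchymal list moved the other way, with 27 of 33 genes higher and 5 lower in SW480 and a median of 3.93 (3.80 with genes at 0 counts set to their bound). MSN, the cytoskeletal linker moesin, stood at 422 CPM in SW480 and 0.0587 CPM in DLD-1, and EMP3, a membrane protein, at 131 and 0.324 CPM. CDH11, another mesenchymal cadherin, was at 3.51 CPM in SW480 and 0 counts in DLD-1, the opposite of CDH2. NT5E, the surface enzyme CD73, was a gene of this list that was lower in SW480, at 58.7 against 184 CPM. Of 11 other transcription factors of the transition, 7 were higher and 3 lower. PRRX1 was at 19.4 CPM in SW480 and 0.677 CPM in DLD-1. TCF4 went the other way, at 0.820 CPM in SW480 and 10.1 CPM in DLD-1, as did TCF3 at 77.2 and 126 CPM and SOX9 at 62.8 and 233 CPM.

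The cytoplasmic partners of the cadherins were mixed, with 2 of 7 higher and 4 lower. CTNNA1, alpha-catenin, was at 888 CPM in SW480 and 252 CPM in DLD-1, and JUP, plakoglobin, at 133 and 471 CPM. Of 24 TGF-beta and BMP ligands, receptors and SMADs, 10 were higher and 10 lower, with a median of -0.00575. BMP7 led the higher genes (55.9 against 0.207 CPM) and BMP2 the lower ones (0.996 against 17.7 CPM). The calls were one-sided in the lists of junction genes, epithelial factors and mesenchymal genes, beside 38.1% of all genes called higher and 35.6% lower. The TGF-beta counts were even and near those shares, so they say little about that list. Those of the 7 cadherin partners say little as well. Under shNAT10 the counts were 1 higher and 34 lower of 35 junction genes and 25 higher and 4 lower of 33 mesenchymal genes. Of 24 TGF-beta genes 9 were higher and 10 lower there, beside 38.2% and 36.3% of all genes.

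Because ESRP1 acts on splicing, the transcript forms of CD44 and FGFR2, known targets of the ESRP proteins, were read. The counts of single transcripts are estimates that share reads among 19 listed CD44 and 20 listed FGFR2 transcripts. The standard form of CD44 (NM_001001391.2, 9 exons in GENCODE, no variable exon) took 42.3% and 41.1% of the CD44 counts in SW480 shControl and 21.8% and 20.0% in DLD-1 shControl. A form with variable exons (NM_001001390.2, 12 exons), called the variable form here, took 11.4% in both SW480 shControl libraries and 27.0% and 26.3% in DLD-1 shControl. The other listed transcripts held the rest of the CD44 counts and were not sorted by form, so these are not the whole variable share. With shNAT10 the standard form stood at 40.5% and 43.3% in SW480 and 11.3% and 21.9% in DLD-1, and the variable form at 7.99% and 7.80% against 27.6% and 31.8%. The lines did not overlap in either form. Over both hairpins together, the standard form differed by 23.0 percentage points (SW480 minus DLD-1, n = 4 and 4, exact two-sided permutation p = 0.0286, adjusted over the 2 forms 0.0286) and the variable form by -18.5 (exact permutation p = 0.0286, adjusted 0.0286). This is the smallest p that 4 against 4 libraries allow, and the test was chosen after the shares were seen. The lines were already known not to overlap, so the p was fixed beforehand and adds no evidence. The test also treated the shControl and shNAT10 libraries of a line as replicates of the same kind.

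**Figure D3:**
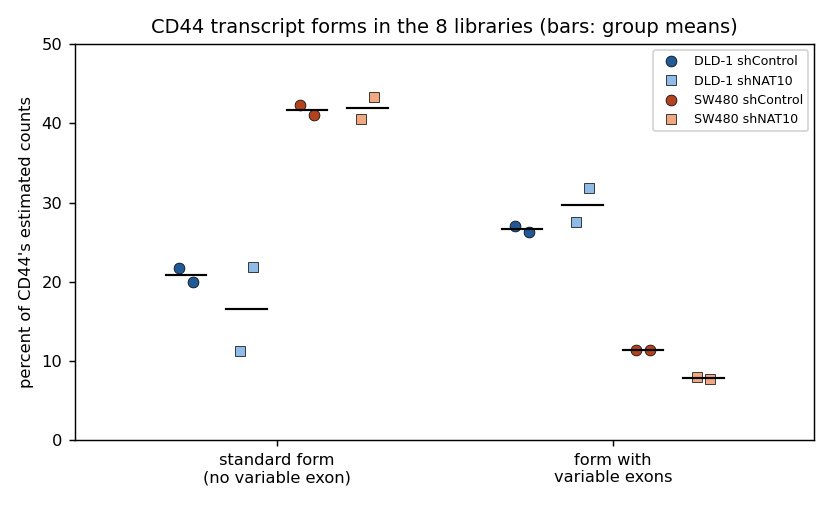
Share of the estimated CD44 counts, in percent, taken by the standard form and by 1 form with variable exons, 1 point a library, with group means as bars. The standard form is higher in all 4 SW480 libraries and the variable form in all 4 DLD-1 libraries.

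FGFR2 was scarce. The epithelial IIIb form (NM_022970.3) had 43.2, 29.99, 45.5 and 62.9 estimated counts in the 4 DLD-1 libraries and 0, 17.3, 0 and 0 in the SW480 libraries, in the order shControl replicates 1 and 2, shNAT10 replicates 1 and 2. The mesenchymal IIIc form (NM_000141.5) had 0 in all DLD-1 libraries and 10.8, 0, 0 and 22.1 in SW480. The IIIb transcript was thus seen in every DLD-1 library, and neither transcript was seen in all SW480 libraries. All FGFR2 transcripts together held 127 to 160 counts in the DLD-1 libraries and 53 to 60 in the SW480 libraries. Only 1 transcript was read for each form, and most FGFR2 counts sat in listed transcripts not sorted by form. A count of 0 therefore does not show that a form was absent.

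None of these genes passed the test for an effect of NAT10 knockdown in either line. In SW480, 0 of the 8 genes with at least 10 counts on average in a group passed the test in either direction, beside 0.778% of all genes called higher and 0.903% called lower. The gene nearest to a call was CDH1, which was at 94.1 and 101 CPM before and at 75.9 and 84.5 CPM after the knockdown, without overlap and at 82.3% of the control level (log2 fold change -0.28, SE 0.0717, 95% interval -0.44 to -0.13, adjusted p = 0.067). This call turned with the setting. CDH1 passed with DESeq2 (adjusted p = 0.027), where 1.01% of all genes were called lower, and without SW480 shNAT10 replicate 2 (log2 fold change -0.36, adjusted p = 0.0083), where 8.18% were called lower and 7.46% higher.

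SNAI2 was at 3.40 and 2.81 CPM before and 5.70 and 3.57 CPM after the knockdown in SW480, a log2 fold change of 0.58 (95% interval 0.028 to 1.13, adjusted p = 0.24). FN1 was at 57.7 and 57.8 CPM before and 47.9 and 52.8 CPM after it (log2 fold change -0.20, 95% interval -0.37 to -0.033, adjusted p = 0.19). Neither passed the test, although the libraries did not overlap. Without SW480 shNAT10 replicate 2 both passed, SNAI2 with a log2 fold change of 0.88 (adjusted p = 0.037) and FN1 with -0.27 (adjusted p = 0.048). Those are the same raised shares of all genes, 7.46% higher and 8.18% lower. Without SW480 shNAT10 replicate 1 the log2 fold changes were 0.21 for SNAI2 (adjusted p = 0.86) and -0.12 for FN1 (adjusted p = 0.69). The chi-square per degree of freedom between the 2 SW480 shNAT10 libraries was 9.61 (1 is sampling noise), against 3.27 to 4.51 in the other groups, which does not tell which of the 2 deviates.

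The remaining SW480 genes gave intervals that included 0. Their width rests on a spread shared by all 4 groups, while the SW480 shNAT10 libraries differed most from each other. The log2 fold change was -0.10 for EPCAM (95% interval -0.23 to 0.037), 0.096 for VIM (-0.057 to 0.25), -0.033 for ZEB1 (-0.27 to 0.21), 0.026 for ESRP1 (-0.24 to 0.30) and 0.042 for SNAI1 (-0.29 to 0.38). None of these 5 intervals reached 0.5 log2 units in either direction. GRHL2 stayed at 0 counts and CDH2 had 1 count in all SW480 libraries together, so no effect could be read for them. With the limits stated in the paper (a fold above 1.2 or below 0.83 and an unadjusted p under 0.05), 1 gene was lower (CDH1) and 1 higher (SNAI2), beside 4.98% of all genes lower and 4.1% higher.

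In DLD-1, 0 of the 7 genes with enough counts passed the test, where 0% of all genes were called higher and 0.0147% (2 genes) lower. At an unadjusted p under 0.05, 812 of all genes differed in DLD-1 and 2622 in SW480, and DESeq2 called 10 genes higher and 5 lower in DLD-1. At the same limits none of the 7 was past the limit, beside 1.34% of all genes in each direction. CDH1 was at 434 and 439 CPM before and 462 and 446 CPM after knockdown (log2 fold change 0.056, 95% interval -0.085 to 0.20, adjusted p = 0.96). EPCAM gave -0.064 (-0.19 to 0.064), ESRP1 -0.12 (-0.34 to 0.098), GRHL2 0.024 (-0.13 to 0.18), SNAI1 0.12 (-0.26 to 0.51), FN1 0.14 (-0.19 to 0.46) and CDH2 0.076 (-0.89 to 1.04). For ZEB1, SNAI2 and VIM the DLD-1 shControl libraries held at most 11 counts, and a fall was not detectable at this depth. With shNAT10 the 2 libraries held 8 and 4 counts of ZEB1, 1 and 0 of SNAI2 and 5 and 1 of VIM, so that no rise toward the SW480 levels was seen.

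The difference of the 2 knockdown effects was tested for the 5 genes with enough counts in all 4 groups, and 0 passed, beside 0% of all genes called higher in SW480 and 0.00734% (1 gene, NAT10) lower. At an unadjusted p under 0.05, 1278 of all genes differed, and DESeq2 called 12 higher and 8 lower. CDH1 came nearest, with an effect that was lower in SW480 than in DLD-1 by 0.34 on the log2 scale (95% interval -0.55 to -0.13, adjusted p = 0.47). Without SW480 shNAT10 replicate 2 it passed, at -0.42 (adjusted p = 0.038), where 1.23% of all genes were called lower. The differences were -0.33 for FN1 (-0.70 to 0.032), 0.15 for ESRP1 (-0.20 to 0.50), -0.082 for SNAI1 (-0.59 to 0.43) and -0.034 for EPCAM (-0.22 to 0.15). The lines also differed in how far NAT10 itself fell (difference -1.16, adjusted p = 0.0015), and its part in these differences was not tested.

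The lists were read for the knockdown beside the same background, 0.778% of all genes called higher and 0.903% lower in SW480. In that line 0 of 35 junction genes, 0 of 15 epithelial factors and 0 of 7 keratins passed the test, and medians were 0.00776, -0.0247 and 0.164 against -0.00946 over all genes. Of 33 mesenchymal genes 1 was lower, of 24 TGF-beta genes 1 was lower, and of 11 other transcription factors 1 was higher. AXL, a receptor kinase of the mesenchymal list, fell from 173 to 142 CPM (log2 fold change -0.28, adjusted p = 0.046). BMPR2, a BMP receptor, fell from 65.8 to 49.0 CPM (log2 fold change -0.43, adjusted p = 0.042), and TCF3, an E-box factor, rose from 77.2 to 103 CPM (log2 fold change 0.41, adjusted p = 0.021). Each of these 3 calls was lost without SW480 shControl replicate 1, SW480 shControl replicate 2, SW480 shNAT10 replicate 1 or either DLD-1 shNAT10 library. Those of AXL and BMPR2 were also lost without either DLD-1 shControl library. All 3 were lost with no filter on low counts (edgeR, adjusted p = 0.097, 0.13 and 0.086) and in the 4 SW480 libraries alone (edgeR, adjusted p = 0.18, 0.17 and 0.096). AXL was lost with both other normalizations (edgeR, adjusted p = 0.053 and 0.058), and BMPR2 on log2(FPKM + 1) and log2(FPKM + 0.1) (limma, adjusted p = 0.24 and 0.27). Without SW480 shNAT10 replicate 1 the BMPR2 log2 fold change was -0.25 (adjusted p = 0.25). In DLD-1, 0 genes of any list passed. Set beside a CDH1 difference between the lines of -2.16, its knockdown effect in SW480 was -0.28, and the CDH1 levels of the 2 lines remained apart under both hairpins.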

How the data were processed

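Poly(A) mRNA of 8 libraries was sequenced as single-end reads of 50 bases on a BGISEQ-500. The authors' notes name HISAT2 2.0.4, Bowtie2 2.2.5, RSEM 1.2.12 and hg38, and the deposited tables hold RSEM-type estimated counts per RefSeq transcript. The authors also deposited FPKM values, in which the table of SW480 shNAT10 replicate 2 lacks 14655 transcripts (18.6%). Here the estimated counts were added up per gene, rounded and tested with edgeR 4.0.16 (R 4.3.3; filterByExpr, TMM, quasi-likelihood test, 1 model of 4 groups, 13619 genes, adjusted p under 0.05). Intervals are 95% intervals of that fit, or exact counting intervals for genes with few counts, and folds against 0 counts use a floor of 3 counts over the group. Alternatives were DESeq2 1.42.0, other normalizations and filters, limma 3.58.1 on log2(FPKM + 1) and log2(FPKM + 0.1), the paper's call limits, the replicate number as a block, each library left out and 4 libraries alone. A fit of FPKM in 7 libraries and the minimum of 10 counts for quoting a knockdown effect were chosen after seeing the data. The genes and lists were chosen with earlier results of these data known. Named from each list were up to 4 genes per direction with the largest change among those called; a list with no call has its counts only, and some genes that the rule would name are not reported here. The code was tested on simulated data. No replicate pair agreed within sampling noise. Whether counting used strand is not given in the sources used here. Sequences and coordinates are from RefSeq, GRCh38.p14.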

Additional observations from a re-analysis of the deposited data

Results flagged for a closer look

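The effect of the knockdown on NAT10 itself differed between the lines, by -1.16 on the log2 scale (SW480 minus DLD-1, SE 0.118, adjusted p = 0.0015, edgeR interaction term with Benjamini-Hochberg adjustment). NAT10 fell to 21.0% of its control level in SW480 and to 47.0% in DLD-1. It was the only one of the genes reported here for which the difference of the 2 effects passed the test. The call was lost on log2(FPKM + 1) (adjusted p = 0.16), on log2(FPKM + 0.1) (adjusted p = 0.12) and without DLD-1 shNAT10 replicate 1 (adjusted p = 0.073), with the size between -1.09 and -1.18 in those 3 fits.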

How the results depend on the processing

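The line differences kept 5 genes higher and 5 lower under each other count normalization, filter, test and left-out library, with the exception of SNAI1 (named in the report with DESeq2 and 2 left-out libraries) and of CDH2, which the fit of the 4 shControl libraries alone did not test. On log2(FPKM + 1) and log2(FPKM + 0.1) the counts were 2 higher and 2 lower under both hairpins, because only 4 of the 10 genes are listed in all FPKM tables. For the knockdown in SW480, 0 genes were higher and 0 lower. The limits of the paper gave 1 higher and 1 lower, DESeq2 1 lower, and leaving out 1 library 0 to 1 higher and 0 to 2 lower, the upper ends without SW480 shNAT10 replicate 2. In DLD-1 each left-out library gave 0 and 0. For the difference of the effects the paper's limits gave 1 lower (CDH1), and leaving out 1 library gave 0 to 1 lower.

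Deviations of libraries with the same replicate number correlated weakly between groups (-0.00535 to 0.128). No label says that a number marks a shared batch, and these values do not settle whether it does. The main model therefore held no replicate block. With the replicate block, 1 gene was lower in SW480 (CDH1, -0.28, edgeR adjusted p = 0.0044). In the difference of the effects 1 gene was lower as well (CDH1, -0.34, edgeR adjusted p = 0.038). The calls over all genes in SW480 went from 106 higher and 123 lower to 734 and 920. With the block, 36 genes were called higher and 29 lower in DLD-1, and 107 and 102 in the difference of the effects. The absence of a CDH1 call in SW480 thus depends on leaving the block out.

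Signs turned only for effects near 0. In SW480, ESRP1 was at -0.053 on the FPKM of 7 libraries and at -0.057 to 0.12 over the left-out libraries, below 0 when the first shControl library was dropped (-0.057) or the second shNAT10 library (-0.0149). ZEB1 ranged from -0.13 to 0.063, above 0 when the second shControl library was dropped (0.018) or the first shNAT10 library (0.063). In DLD-1, ESRP1 ranged from -0.25 to 0.031 and CDH2 from -0.31 to 0.61, with the sign turned when the first shControl library was dropped (0.031 and -0.31) and, for CDH2, the second shNAT10 library (-0.27). The EPCAM difference ranged from -0.062 to 0.00045, above 0 when the second DLD-1 shControl library was dropped. Calls over all genes in SW480 ranged from 9 higher and 8 lower (second SW480 shControl library dropped) to 1031 and 1131 (second SW480 shNAT10 library dropped). Depth limits ZEB1, SNAI2 and VIM in DLD-1 and GRHL2 and CDH2 in SW480. The causes were not tested.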

Other observations

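Genes with the pattern most like 4 of these genes were sought by Pearson's r of log2 CPM over the 8 libraries. The libraries stand in 2 groups by line, so that r is near 1 for many genes, and it is given as a description. For CDH1 these were SLC44A4 and TRANK1 (r = 0.9997) and STAT2 (r = 0.9996), among 755 genes with r over 0.99. For ESRP1 they were HOXB9 (r = 0.9989), IL33 and SMAD7 (r = 0.9982), among 323 such genes. For VIM they were SYDE1 (r = 0.9998), DKK3 (r = 0.9997) and EDARADD (r = 0.9995), among 1142 such genes. For ZEB1 they were NR3C1 (r = 0.9994), GPR55 (r = 0.9993) and RNF182 (r = 0.9992), among 774 such genes.

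The genes also differed in how many transcripts carried their counts. A single transcript held 99.3% of the CDH1 counts and 89.8% of the GRHL2 counts, whereas the leading transcript of ESRP1 held 32.7% and that of FN1 17.3%, of 7 and 22 transcripts listed.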
